A study of Mus with 5 samples.

Results

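The transcripts of 8 genes that build the extracellular matrix of the endocardial cushions and forming valves were measured by RNA-seq in E14.5 mouse hearts with and without ectopic myocardial *Bmp2*. The genes were *Has2*, *Vcan*, *Postn*, *Fn1*, *Col1a1*, *Col1a2*, *Col2a1* and *Col3a1*. They were taken by their Ensembl identifiers, not by their values, and all 8 were among the 12857 genes with deposited values. The transgenic group carried the Cre driver *Nkx2.5* Cre together with a transgene, inserted in the *Rosa26* locus, that expresses *Bmp2* from a CAG promoter once Cre has removed a stop cassette. The other group is labelled WT. In the cross that the study describes for counting surviving embryos the mothers were homozygous for Cre, so that siblings without the transgene also carried 1 Cre allele. The sources used here do not state that the WT pools came from this cross, and any part of the Cre allele in the differences was not tested. The transgenic line came from 1 embryonic stem cell clone. All hearts were taken at E14.5 with the atria removed, and each library held the RNA of 4 hearts. Values were available for 3 transgenic pools and 2 WT pools, a further WT pool having been excluded by the authors for clustering away from the others. By the study's methods, RNA of 12 hearts per genotype was pooled into 3 replicates, so the pools are taken as separate groups of embryos. The limma p-values rest on the spread between pools, drawn towards a trend over all genes, because so few pools estimate the spread of 1 gene poorly. The excluded WT pool is not part of that spread, so the p-values may be too small.

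The cushions are swellings of the atrioventricular canal and outflow tract that are remodelled into valve leaflets and septa. Myocardial Bmp2 is a known signal for this process. Myocardium first deposits a jelly rich in hyaluronan and versican, endocardial cells then transform into mesenchyme and invade it, and collagens, fibronectin and periostin stiffen and organise the maturing leaflet. The same matrix genes are also active in epicardium-derived fibroblasts and in the walls of vessels, so in a bulk sample of ventricles and valves their transcripts come from several cell types. Fewer cells of a type and less RNA per cell cannot be told apart in such samples. In transgenic hearts at E14.5 the study reported an enlarged valve region with more cells, marked by *Has2* and periostin. Bulk values do not show where in the heart a transcript lies.

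Over the 12857 genes with deposited values, the 5 libraries held between 7427905 and 10564780 reads. Values are in normalized CPM, the reads of a gene scaled to a library size that differs slightly from these totals (7460672 to 10456517). A count of 0 would allow up to 3 reads, or 0.287 to 0.402 CPM, for counting error only. Transgenic pools 1, 2 and 3 had 23.0, 27.1 and 23.3 CPM of *Bmp2* itself and WT pools 1 and 2 had 14.1 and 10.2 CPM, a log2 fold change of 0.99 (limma adjusted p = 0.000712). Each cushion gene had between 55 and 15669 reads per library. Together the 8 genes took 0.537% to 0.603% of these total reads where *Bmp2* was ectopic and 0.622% to 0.638% in WT. Levels of different genes were not compared, because CPM is not corrected for transcript length.

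None of the 8 cushion matrix genes was called different between the genotypes by limma after adjustment over all genes. With so few pools, this does not show that they were unchanged. With limma on log2(CPM + 0.5), 0 of 8 had an adjusted p at or under 0.05, where 2.82% of all 12857 genes did. Without adjustment, 3 of the 8 had a limma p under 0.05 (*Col3a1*, *Vcan* and *Fn1*), against 17.7% of all genes. On the recovered reads, edgeR's quasi-likelihood test and its exact test called 0 of the 8 and DESeq2 called 1, *Col3a1*, while these tests called 3.1%, 3.75% and 1.78% of all genes. Their unadjusted p was under 0.05 for the same 3 genes with either edgeR test (17.7% and 15.1% of all genes) and for 6 of the 8 with DESeq2 (9.92% of all genes), which added *Col1a1*, *Col1a2* and *Postn*. The differences were small and of both signs. The log2 fold change was below 0 for 5 of the 8 genes, where 48.8% of all genes were below 0, and above 0 for 3, with a median of -0.12 over the 8 and of 0.0045 over all genes. In 6 of the 8 genes the transgenic pools did not overlap the WT pools, all lower in 5 (*Col3a1*, *Vcan*, *Fn1*, *Col1a1* and *Col1a2*) and all higher in 1 (*Postn*). Such separation was found in 35.7% of all genes.

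**Figure D1:**
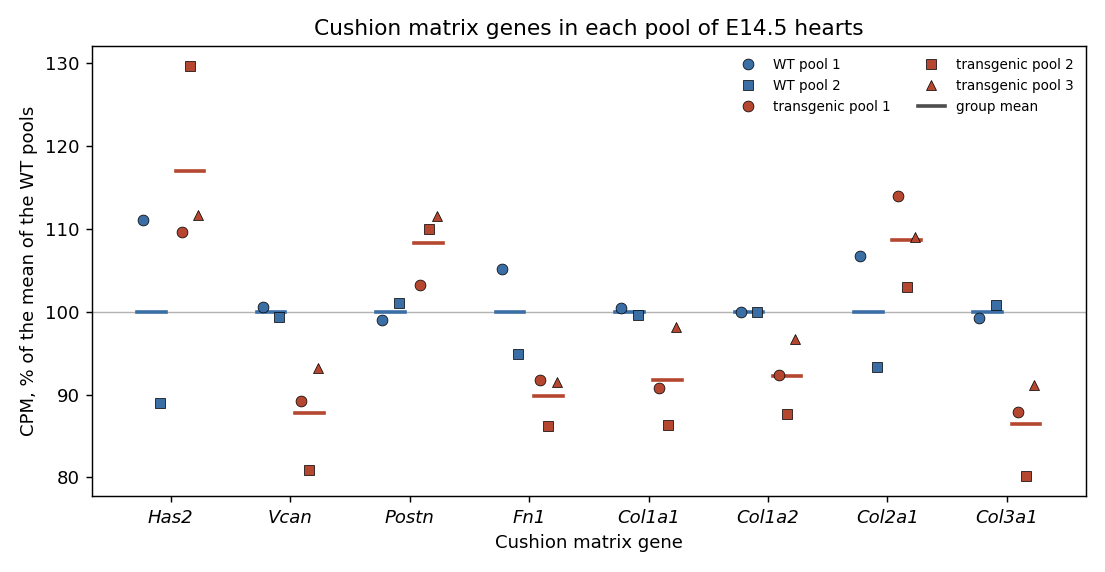
CPM of the 8 cushion matrix genes in each pool, as a percentage of the mean of the 2 WT pools; symbols are single pools (blue WT, red transgenic) and horizontal bars are group means. Transgenic pool 2 was lowest for *Vcan*, *Fn1*, *Col1a1*, *Col1a2* and *Col3a1*, down to 80.2% for *Col3a1*, and highest for *Has2*, at 129.6%.

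*Has2* (ENSMUSG00000022367, chromosome 15 of GRCm38, 56665627 to 56694546) encodes the hyaluronan synthase that makes most of the cushion hyaluronan. Its level was 9.09, 10.7 and 9.25 CPM in transgenic pools 1, 2 and 3, and WT pools 1 and 2 had 9.20 and 7.37 CPM. The groups overlapped, since transgenic pool 1 lay below WT pool 1, and the lowest value was that of WT pool 2. The log2 fold change was 0.22 (standard error 0.16, 95% confidence interval -0.11 to 0.55, limma adjusted p = 0.491). It was 0.07 without WT pool 2 and 0.37 without WT pool 1. *Has2* had 74 to 100 reads per transgenic library, and the WT libraries held 87 and 55. Read counting alone gives a coefficient of variation of 10.7% at the depth of the transgenic pools and 12.2% at that of the WT pools, close to the 9.37% and 15.6% seen between pools. With this spread and number of pools, the changes within that interval, no change included, could not be told apart for *Has2*. In the RefSeq annotation *Has2* overlaps the long non-coding gene *Has2os*, and *Vcan*, *Postn* and *Col2a1* also overlap long non-coding genes or, for *Vcan*, a pseudogene as well. The sources used here do not state that reads were counted by strand, so reads of such neighbours cannot be told apart from those of the gene.

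*Vcan* (ENSMUSG00000021614, chromosome 13, 89655309 to 89743027) encodes versican, the large chondroitin sulphate proteoglycan that binds hyaluronan in the cushion. Transgenic pools 1, 2 and 3 had 547, 496 and 571 CPM, and WT pools 1 and 2 had 617 and 609 CPM. Every transgenic pool lay below both WT pools, and transgenic pool 2 was the lowest. The mean was 538 ± 38.4 CPM (SD, n = 3) against 613 ± 5.34 CPM (SD, n = 2), a difference of -12.2%. The log2 fold change was -0.19 (standard error 0.06, 95% confidence interval -0.32 to -0.06), with a limma p of 0.00772 before and 0.114 after adjustment. Without transgenic pool 3, the highest of its group, *Vcan* was called at a log2 fold change of -0.23 (limma adjusted p = 0.0449). The limma adjusted p was 0.282 without transgenic pool 2.

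*Fn1* (ENSMUSG00000026193, chromosome 1, 71585473 to 71653280) encodes fibronectin, an adhesive glycoprotein on which mesenchymal cells migrate. Its level was 1266, 1190 and 1263 CPM in transgenic pools 1, 2 and 3, below the 1451 and 1310 CPM of WT pools 1 and 2. The WT pools differed from each other by more than WT pool 2 differed from the nearest transgenic pool. The log2 fold change was -0.15 (standard error 0.06, 95% confidence interval -0.29 to -0.02, limma adjusted p = 0.218). It was -0.08 without WT pool 1 and -0.23 without WT pool 2.

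*Col1a1* (ENSMUSG00000001506, chromosome 11, 94936224 to 94953042) and *Col1a2* (ENSMUSG00000029661, chromosome 6, 4505618 to 4541543) encode the chains of type I collagen, the main fibre-forming collagen of the mature leaflet. For *Col1a1*, transgenic pools 1, 2 and 3 had 823, 782 and 889 CPM, and WT pools 1 and 2 had 910 and 902 CPM. For *Col1a2*, the transgenic pools had 860, 816 and 901 CPM in the same order, and each WT pool had 932 CPM. In both genes transgenic pool 2 was lowest and transgenic pool 3 came within 4% of the WT mean, at 98.1% for *Col1a1* and 96.7% for *Col1a2*. The log2 fold changes were -0.13 for *Col1a1* (95% confidence interval -0.26 to 0.01, limma adjusted p = 0.304) and -0.12 for *Col1a2* (95% confidence interval -0.24 to 0.01, limma adjusted p = 0.31). Of all pairs among the 8 genes, these had the most similar course over the 5 libraries, with a root mean square difference of 0.02 between their centred log2 values.

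*Col3a1* (ENSMUSG00000026043, chromosome 1, 45311538 to 45349706) encodes type III collagen, which forms fine fibres together with type I collagen in distensible tissue. Its level was 1467, 1339 and 1522 CPM in transgenic pools 1, 2 and 3, and WT pools 1 and 2 had 1657 and 1683 CPM. As for *Vcan*, every transgenic pool lay below both WT pools, with transgenic pool 2 the lowest and pool 3 the highest of the group. The mean was 1443 ± 93.7 CPM (SD, n = 3) against 1670 ± 18.6 CPM (SD, n = 2), a difference of -13.6%. On the log2 scale the fold change was -0.21 (standard error 0.07, 95% confidence interval -0.35 to -0.07, limma adjusted p = 0.0956). This was the lowest adjusted p of the 8 genes. The same reads gave an adjusted p of 0.0269 with DESeq2, of 0.0766 with edgeR's exact test and of 0.117 with its quasi-likelihood test. Over all 16 alternatives the adjusted p of *Col3a1* lay between 0.0215 and 0.45, and without transgenic pool 3 limma called it (log2 fold change -0.25, adjusted p = 0.0364).

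*Col2a1* (ENSMUSG00000022483, chromosome 15, 97975602 to 98004724) encodes type II collagen, best known from cartilage and also made in cushion mesenchyme. Transgenic pools 1, 2 and 3 had 36.3, 32.9 and 34.8 CPM, and WT pools 1 and 2 had 34.0 and 29.8 CPM, so that the groups overlapped. This gave a log2 fold change of 0.12 (standard error 0.09, 95% confidence interval -0.07 to 0.31, limma adjusted p = 0.518). As with *Has2*, its size turned on the WT pool used, at 0.02 without WT pool 2 and 0.22 without WT pool 1. *Col2a1* had 222 to 380 reads per library, and read counting alone gives a variation of 5.63% at the depth of the transgenic pools and 6.17% at that of the WT pools, where 5.04% and 9.50% were seen. For the 6 genes with more reads, counting alone gives 0.847% to 1.43%. Their transgenic pools varied by more than that, 3.48% to 7.13%. The 2 WT pools varied by 7.24% for *Fn1*, by 1.46% for *Postn* and 1.11% for *Col3a1*, and by less than counting gives for *Vcan* (0.872%), *Col1a1* (0.646%) and *Col1a2* (0.023%), so that an SD over these 2 pools can understate the spread.

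*Postn* (ENSMUSG00000027750, chromosome 3, 54359267 to 54391041) encodes periostin, a matricellular protein of valve mesenchyme and cardiac fibroblasts that promotes collagen assembly. Transgenic pools 1, 2 and 3 had 732, 780 and 791 CPM, above the 702 and 716 CPM of WT pools 1 and 2. Of the transgenic pools, pool 1 was nearest to WT. The mean was 768 ± 31.6 CPM (SD, n = 3) against 709 ± 10.3 CPM (SD, n = 2), a difference of 8.27%. The log2 fold change was 0.11 (standard error 0.06, 95% confidence interval -0.01 to 0.23, limma adjusted p = 0.31). Without any 1 pool it stayed between 0.09 and 0.15 and was not called.

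**Figure D2:**
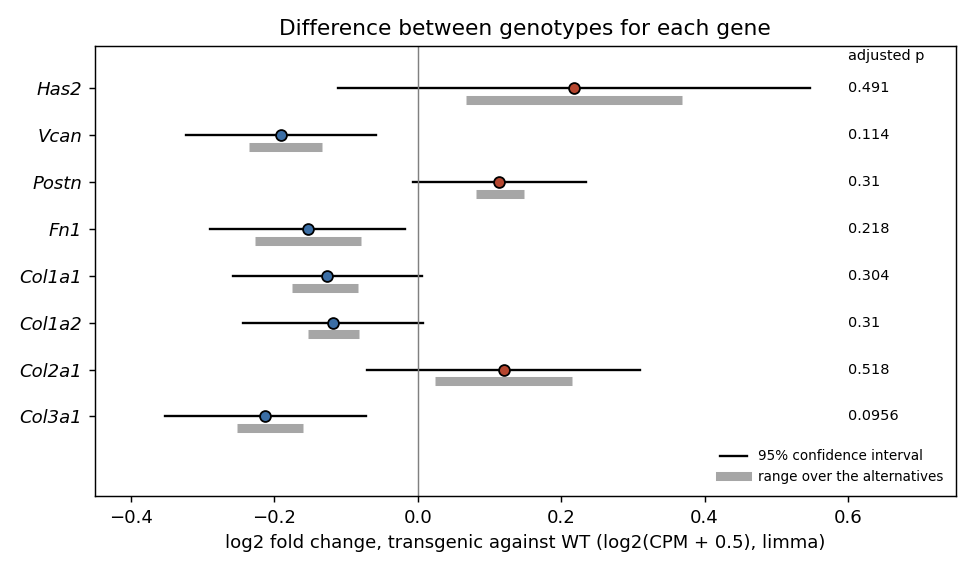
Log2 fold change of each gene between genotypes on the log2(CPM + 0.5) scale, with its limma 95% confidence interval (black) and the range of the fold change over the 16 alternatives (grey); limma adjusted p-values stand on the right. The intervals of *Vcan*, *Fn1* and *Col3a1* lay below 0, and the adjusted p-values ran from 0.0956 to 0.518.

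The confidence intervals, taken gene by gene without adjustment, give the range of changes that these libraries allow. They may be too narrow, because a WT pool that clustered away from the others was excluded. For *Col1a1*, *Col1a2*, *Fn1*, *Vcan* and *Col3a1* the lower bounds lay between -0.24 and -0.35, and for *Postn* the upper bound was 0.23. Increases were bounded least for *Has2* and *Col2a1*, with upper bounds of 0.55 and 0.31. The smallest log2 fold change among the genes that limma called was 0.22 in size, which is near the size of the differences of *Col3a1* and *Has2*.

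Ratios between genes of the same library do not depend on how the libraries were scaled. Between the chains of type I collagen, the log2 ratio of *Col1a1* to *Col1a2* was -0.06, -0.06 and -0.02 in transgenic pools 1, 2 and 3, against -0.03 and -0.05 in WT pools 1 and 2, with no separation of the groups (difference -0.0083, exact permutation test, two-sided p = 0.6, where 3 pools against 2 cannot give less than 0.1). A further 7 ratios were chosen after the values had been seen and pair genes that differed unequally, so they are described without a test. The log2 ratio of *Postn* to *Vcan* was 0.42, 0.65 and 0.47 in transgenic pools 1, 2 and 3, against 0.19 and 0.23 in WT pools 1 and 2, a difference of 0.30. That of *Has2* to *Vcan* was -5.91, -5.53 and -5.95, against -6.07 and -6.37, in the same order, a difference of 0.42. The transgenic pools were above both WT pools in these ratios and in those of *Postn* to *Col1a1* (difference 0.24), *Postn* to *Fn1* (0.27), *Postn* to *Col3a1* (0.33) and *Col2a1* to *Col1a1* (0.25). That separation follows in part from the choice of the pairs, and several ratios share a gene. The log2 ratio of *Col3a1* to *Col1a1* was lower in every transgenic pool, by a mean difference of -0.09.

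**Figure D3:**
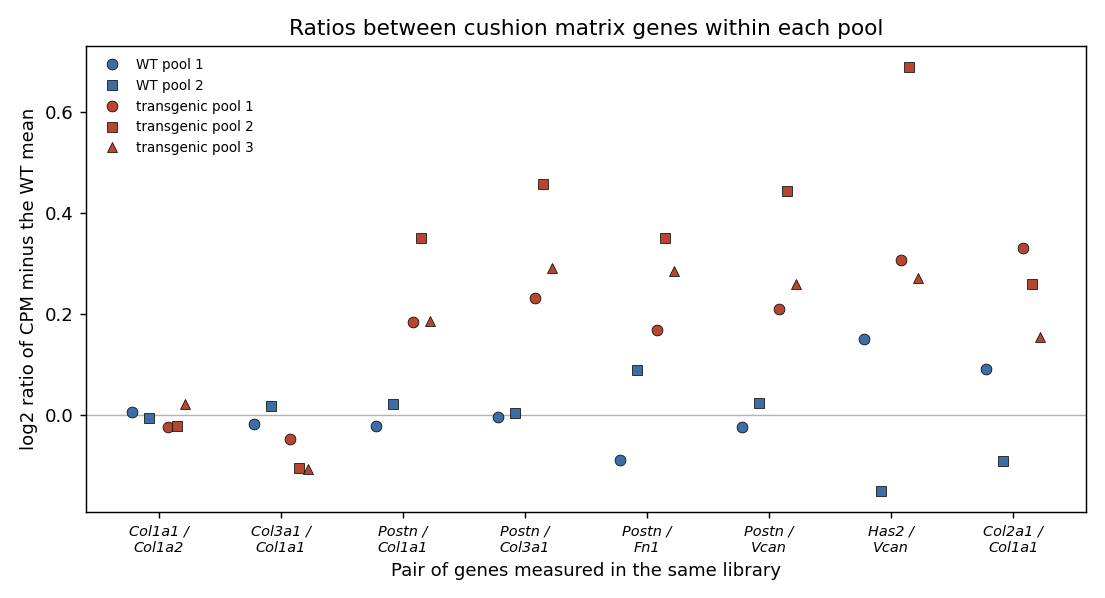
Log2 ratio of the CPM of 2 genes in the same pool, minus the mean of that ratio in the 2 WT pools; symbols are single pools (blue WT, red transgenic). The ratio of *Col1a1* to *Col1a2* overlapped between genotypes, whereas the 4 ratios with *Postn* as numerator, chosen after the values were seen, were higher in all transgenic pools, by 0.24 to 0.33 on average.

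Other genes of the cushion matrix could be placed beside these only in part. Genes stand in the deposited values under Ensembl identifiers only, and these were paired with a name here for the 8 genes and for the 406 genes that the study lists as changed. Of the 152 genes in 11 lists of matrix biology, 26 were paired, the 8 cushion genes and 18 others. Those 18 were chosen by the study on these same libraries for their difference, so their counts are not independent evidence. Of the 18, limma called 14, with 5 higher and 9 lower in transgenic hearts, where limma called 1.22% of all genes higher and 1.59% lower, which is no base rate for genes chosen in this way. Without WT pool 1 it called 0 higher and 0 lower of these genes, and without WT pool 2 it called 1 higher and 0 lower, so each lower call of a matrix gene given below is lost when either WT pool is left out. Each of the 18 was separated between the genotypes, as were 35.7% of all genes.

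Of the 16 genes for the synthesis, binding and breakdown of hyaluronan, only *Has2* and *Ugdh* were paired. *Ugdh*, the enzyme that makes the UDP-glucuronic acid used by hyaluronan synthases and for other glycosaminoglycans, rose to 82.9 ± 0.676 CPM (SD, n = 3), where WT had 64.1 ± 2.09 CPM (SD, n = 2). This was a log2 fold change of 0.37 (limma adjusted p = 0.00444). *Vcan* was the only one paired of 4 large chondroitin sulphate proteoglycans. Of the 6 versican-cleaving Adamts proteases *Adamts15* was paired, and it was not called, with 24.3 to 32.6 CPM against 35.1 and 41.2 CPM in WT (limma adjusted p = 0.0558).

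Of the 11 fibrillar collagen genes 5 were paired, the 4 described above and *Col5a1*, which encodes a chain of the type V collagen that nucleates type I fibres. None of the 5 was called. *Col5a1* had 296 to 332 CPM in transgenic hearts, WT having 362 and 389 CPM (log2 fold change -0.24, limma adjusted p = 0.0508), and the median of the 5 was -0.13. Of 18 other collagens 6 were paired and all 6 were called lower (1.59% of all genes were), with a median of -0.35, and 0 of the 6 were called without WT pool 1 or without WT pool 2. Among them, *Col6a6*, *Col6a3* and *Col6a2*, chains of the microfibrillar type VI collagen, fell by 0.59, 0.42 and 0.33 on the log2 scale (adjusted p-values from limma, 0.00209, 0.00737 and 0.00494). *Col23a1*, a transmembrane collagen, fell by 0.37 (limma adjusted p = 0.0257). The basement membrane gene *Lama2*, a laminin chain and 1 of 11 genes in its list, fell by 0.38 (limma adjusted p = 0.00549).

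The list of 24 matricellular, fibulin and elastic fibre genes had 5 paired members, *Postn* and *Fn1* among them, with a median of -0.15. *Eln*, the elastin of vessel walls and valves, fell by 0.38 and *Fbn1*, the fibrillin of microfibrils, by 0.26 on the log2 scale (adjusted p-values from limma, 0.018 and 0.0275). *Emilin2*, a glycoprotein of the elastin microfibril interface family, rose by 0.34 (limma adjusted p = 0.00378). Of the 7 small leucine-rich proteoglycans *Dcn* was paired, and it was not called (log2 fold change -0.22, limma adjusted p = 0.0736). The same held for *P4ha3*, a collagen prolyl hydroxylase chain, the only one paired of 25 genes of collagen modification (log2 fold change 0.35, limma adjusted p = 0.0508). The collagen receptor *Ddr1*, 1 of 15 receptors, rose by 0.28 (limma adjusted p = 0.0311). Of 15 transcription factors of cushion and valve mesenchyme *Tbx20* and *Gata4* were paired, and they rose by 0.41 (limma adjusted p = 0.00162) and 0.23 (limma adjusted p = 0.0411).

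**Figure D4:**
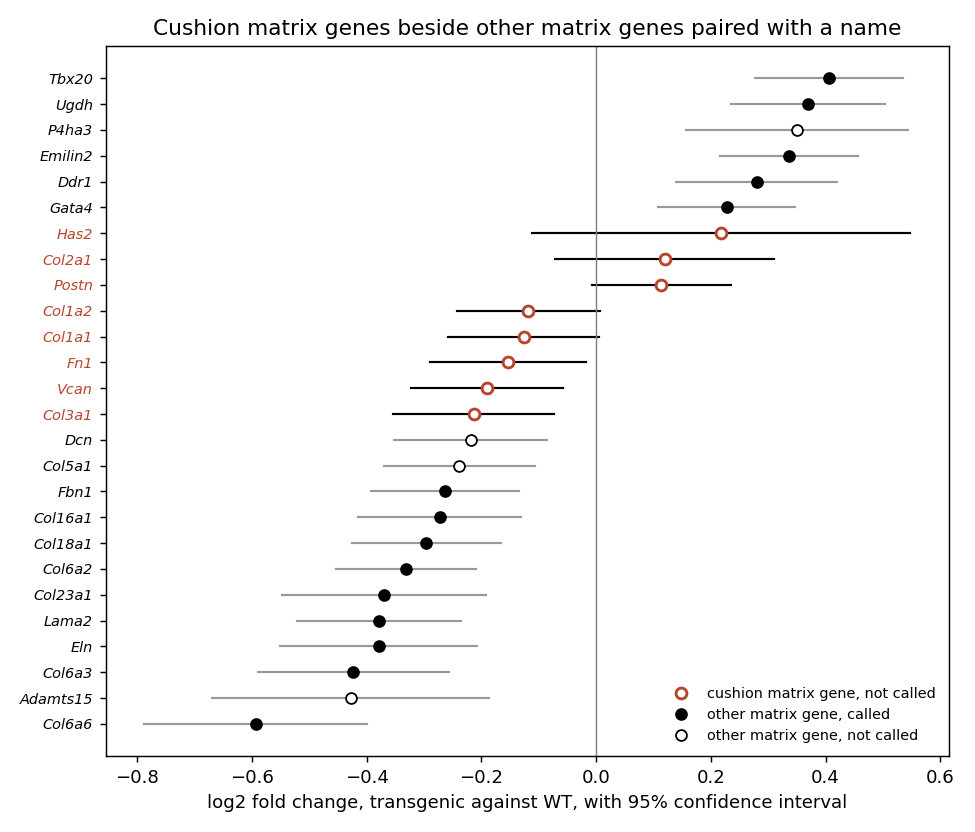
Log2 fold change with limma 95% confidence interval for the 8 cushion matrix genes (red outlines and names) and the 18 other matrix genes that could be paired with a name; filled points were called. The 8 genes lay between -0.21 and 0.22, inside the range of the others, which ran from -0.59 for *Col6a6* to 0.41 for *Tbx20* and were listed by the study because they differed.

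Among these 18 genes, those closest in course to each cushion gene over the 5 libraries were found by the root mean square difference of centred log2 values. *Col5a1* and *Col16a1*, a fibril-associated collagen, were nearest to *Vcan* (0.04 and 0.05), *Fn1* (0.05 and 0.06) and *Col3a1* (0.05 and 0.05). *Dcn* and *Col5a1* were nearest to *Col1a1* (0.07 and 0.08) and to *Col1a2* (0.07 and 0.08). *Postn* was nearest to *Gata4* and *Emilin2* (0.09 and 0.12), *Col2a1* to *Gata4* and *Ddr1* (0.11 and 0.14), and *Has2* to *Ddr1* and *P4ha3* (both 0.13). Among the cushion genes themselves, the closest pair after the type I collagen chains was *Vcan* and *Col3a1* (0.02), and the farthest apart were *Has2* and *Col3a1* (0.27). These values describe 5 libraries that share the same 2 groups. The 18 genes were listed by the study because they differed between those groups, so nearness to them follows in part from the size and sign of that difference.

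Markers of cell types that make or border the matrix were also paired only in part, again from the study's list of changed genes. Of 9 markers of epicardium and cardiac fibroblasts 2 were paired. *Pdgfra*, a receptor of fibroblasts and valve mesenchyme, fell to 99.7 ± 6.86 CPM (SD, n = 3), where WT had 126 ± 0.814 CPM (SD, n = 2), while the epicardial factor *Tbx18* rose to 87.2 ± 0.995 CPM, where WT had 67.5 ± 3.09 CPM (limma adjusted p-values of 0.00919 and 0.00476). Their sum was 180 to 191 CPM, against 191 and 197 CPM in WT. Of 9 endothelial and endocardial markers *Cdh5*, *Kdr* and *Tie1* were paired, with sums of 426 to 506 CPM, against 590 and 603 CPM in WT, and *Kdr* and *Tie1* were called lower. Of 8 smooth muscle and pericyte markers *Pdgfrb*, *Rgs5* and *Myh11* were paired, with sums of 138 to 157 CPM, against 185 and 188 CPM in WT, and the last 2 were called lower. Of 10 cardiomyocyte markers *Ryr2* was paired, at 425 to 480 CPM, against 548 and 556 CPM in WT, and was called lower. Limma called 1.22% of all genes higher and 1.59% lower, which is no base rate for markers taken from a list of changed genes. How far these marker calls depend on either WT pool was not examined. Transgenic pool 2 was the lowest for *Vcan*, *Fn1* and the collagens of types I and III. It was also the lowest of the 5 libraries in the endothelial, smooth muscle, and epicardium and fibroblast sums and in *Ryr2*. This did not hold for each gene of the sums. *Tbx18* was highest in transgenic pool 2 (88.1 CPM), and *Rgs5* was lowest in transgenic pool 1 (52.6 CPM, against 55.6 CPM in pool 2). The smooth muscle sums of transgenic pools 1 and 2 were nearly equal (138.19 and 137.74 CPM). Transgenic pool 2 was also lowest for other matrix genes such as *Eln* and *Fbn1*, though not for *Col6a2* or *Dcn*. The share of all genes lowest in transgenic pool 2 was not counted, so these sums set no cell type apart. Of 15 cartilage markers *Col2a1* alone was paired. The lists for red blood cells, macrophages, lung and foregut epithelium, and liver had 0 paired genes, so the labelled tissue was checked only by these few. None of the paired markers was at or under 3 reads in all libraries. The part of these cell types in the values of the cushion genes was not tested.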

How the data were processed

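RNA-seq values of 3 transgenic and 2 WT pools of E14.5 hearts were used. Per the labels and methods, the authors removed adaptors with cutadapt, quantified genes with RSEM over GRCm38, and deposited normalized CPM for 12857 genes (0 columns were left unused). Every value was a whole multiple of the worth of 1 read (100% of values, tolerance 0.02 reads), which gave the whole count behind it. These counts are called reads here, but they are as RSEM quantified them and can be rounded estimates. Because CPM are not counts, log2(CPM + 0.5) was compared with limma 3.58.1 in R 4.3.3, with a variance trend and no covariates, with Benjamini-Hochberg adjustment over all 12857 genes and a threshold of 0.05. The filter of at least 1 CPM in at least 2 libraries removed 0 genes. edgeR 4.0.16 and DESeq2 1.42.0 served as alternative tests of those reads, and the scripts were tested on simulated data. The analysis was also repeated with a pseudocount of 0.1 or 1, without a filter or with one at a mean of 5 CPM, without the variance trend, after quantile or total scaling, blocked by pool number, and without each pool.

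The members and lists were chosen with earlier results of these data known. Positions come from RefSeq for GRCm38.p6, matched by symbol, and names from the study's list of 406 genes. Named are the 8 members with the 2 nearest genes of each, the called genes of each matrix list (at most 4, by size of change), and, of 9 marker lists, the called genes and group sums. *Cdh5*, *Pdgfrb* and *Adamts15*, none of them called, were named to complete their lists, after their values were seen. The ratios, other than *Col1a1* to *Col1a2*, were also chosen after seeing the values. Python 3.11.15, numpy 2.4.6, pandas 2.3.3, scipy 1.17.1 and matplotlib 3.10.9 were used.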

Additional observations from a re-analysis of the deposited data

How the results depend on the processing

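Each of the 8 genes kept its direction under all 16 alternatives, and 123 of the 128 values stayed on the same side of the threshold. The other 5 were calls of *Vcan* and *Col3a1*: with the pool number as a replicate block (-0.2348 and -0.2523, adjusted p-values of 0.0242 and 0.0215), with DESeq2 (*Col3a1* only, -0.2127, adjusted p = 0.0269), and without transgenic pool 3. Leaving out 1 pool at a time gave log2 fold changes from 0.07 to 0.37 for *Has2*, -0.23 to -0.13 for *Vcan*, 0.09 to 0.15 for *Postn*, -0.23 to -0.08 for *Fn1*, -0.18 to -0.08 for *Col1a1*, -0.15 to -0.08 for *Col1a2*, 0.02 to 0.22 for *Col2a1*, and -0.25 to -0.16 for *Col3a1*. The sources used here do not state whether pools of the same number share anything else. Their deviations from the group means correlated at -0.0259 for pool 1 and -0.0499 for pool 2 across genes. With only 2 WT pools, the WT deviations mirror each other, so these correlations cannot decide whether a batch was shared. The block leaves transgenic pool 3 a level of its own, so its fold changes equal those without that pool. The alternative without a filter repeats the main fit, because the filter removed 0 genes, so the 16 alternatives are not all separate checks.

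Over all genes, limma called 157 higher and 205 lower. These were 10 and 0 without the variance trend, 99 and 130 with DESeq2, 289 and 366 with the block, and 125 and 251 with libraries rescaled to the same total, a higher share of lower calls. With each pool left out they ranged from 33 to 205 and from 9 to 259. With 1 WT pool left, the test assumes that it varies like the transgenic pools. Of the 26 paired matrix genes, 5 were called higher and 9 lower, and 0 and 0 without the variance trend; 14 were called lower with the block. With each transgenic pool left out the counts ranged from 3 to 5 higher and from 6 to 14 lower, and they were smaller with either WT pool left out. The cause was not tested. Reads were fewest for *Has2* and *Col2a1*, where counting alone gives a variation of 5.63% to 12.2%.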
